A study of Mus musculus with 2 samples.

Results

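The genes described here are 41 genes of the liver endothelium, set as a list by symbol: 11 genes of liver sinusoidal endothelial cells, 27 genes used as pan-endothelial markers and 3 angiocrine genes of the Wnt pathway. A gene was measured where a probe set of the array carried its symbol and no other. This held for 40 of the 41 genes, out of 18194 genes on the array. Tspan7, the remaining one, was not analysed here. Liver RNA came from ICR mice, an outbred stock, fed CRF-1, a basal diet, with or without 500 ppm of diosgenin, which is a steroidal sapogenin of plants. Feeding began at 9 weeks of age and lasted 4 weeks, and livers were taken at 13 weeks. Each diet is represented by 1 Affymetrix array, and each array by liver RNA pooled from 3 mice, so no spread between mice can be had and no p-value was computed. Cages held 3 mice each and the labels do not tie cages to diets, so an effect of the cage cannot be told apart from one of the diet.

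Liver sinusoids are lined by a fenestrated endothelium without a continuous basement membrane, through which plasma reaches the hepatocytes. Its cells clear waste molecules from blood with scavenger receptors such as the stabilins, and they carry lectins and an Fc receptor that most other endothelium lacks. They depend on VEGF signalling from neighbouring cells. In turn they release angiocrine factors, among them Wnt ligands and R-spondin 3, which maintain the gene programme of hepatocytes around the central vein, and BMP ligands, which control iron handling.

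Most of these genes were lower on the diosgenin array than on the control array, by small amounts. Of the 37 genes bright enough to be read, 29 were lower and 8 higher, with a median log2 ratio of −0.23, equal to 1.18-fold lower. Among all 9732 genes read in the same way, 51% were lower, 49% higher and the median log2 ratio was −0.0053. At least 1.5-fold lower were Nrp2, Cldn5, Wnt2, Clec4g, Flt1 and Fcgr2b, and at least 1.5-fold higher were Dll4 and Gata4. These are 6 and 2 of the 37 genes, where 3.61% of all genes were at least 1.5-fold lower and 2.84% at least 1.5-fold higher. With the median over the probe sets of a gene in place of the brightest one, these counts were 3 and 0. The 3 were Cldn5, Wnt2 and Lyve1, of which Lyve1 was not among the 6. That median also takes in probe sets too dim to be read, which Clec4g, Fcgr2b, Flt1, Nrp2, Gata4 and Dll4 all had. Dll4 reached the filter described next only through its signal on the diosgenin array, and Sox7 only through that on the control array, so the choice of readable genes favoured the direction of their ratios.

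A gene counted as readable where its 2 signals averaged at least 28.4, a filter set at the 60th percentile over probe sets, and it was represented by its brightest probe set. Signals are linear intensities, and any below a floor of 10.7 was raised to it before the ratio of diosgenin over control was taken. The 3 genes with a probe set that did not reach the filter were Vwf, Sox17 and Wnt9b. The arrays had median signals of 17.1 for control and 17.0 for diosgenin, equal 2% trimmed means of 96.9, and 59.9% and 60.1% of probe sets above the floor. Of the defining genes of endothelium, Pecam1, Kdr, Cdh5, Stab2 and Clec4g were all above the filter on liver RNA. In whole liver, fewer endothelial cells and less of these transcripts per cell cannot be told apart.

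**Figure D1:**
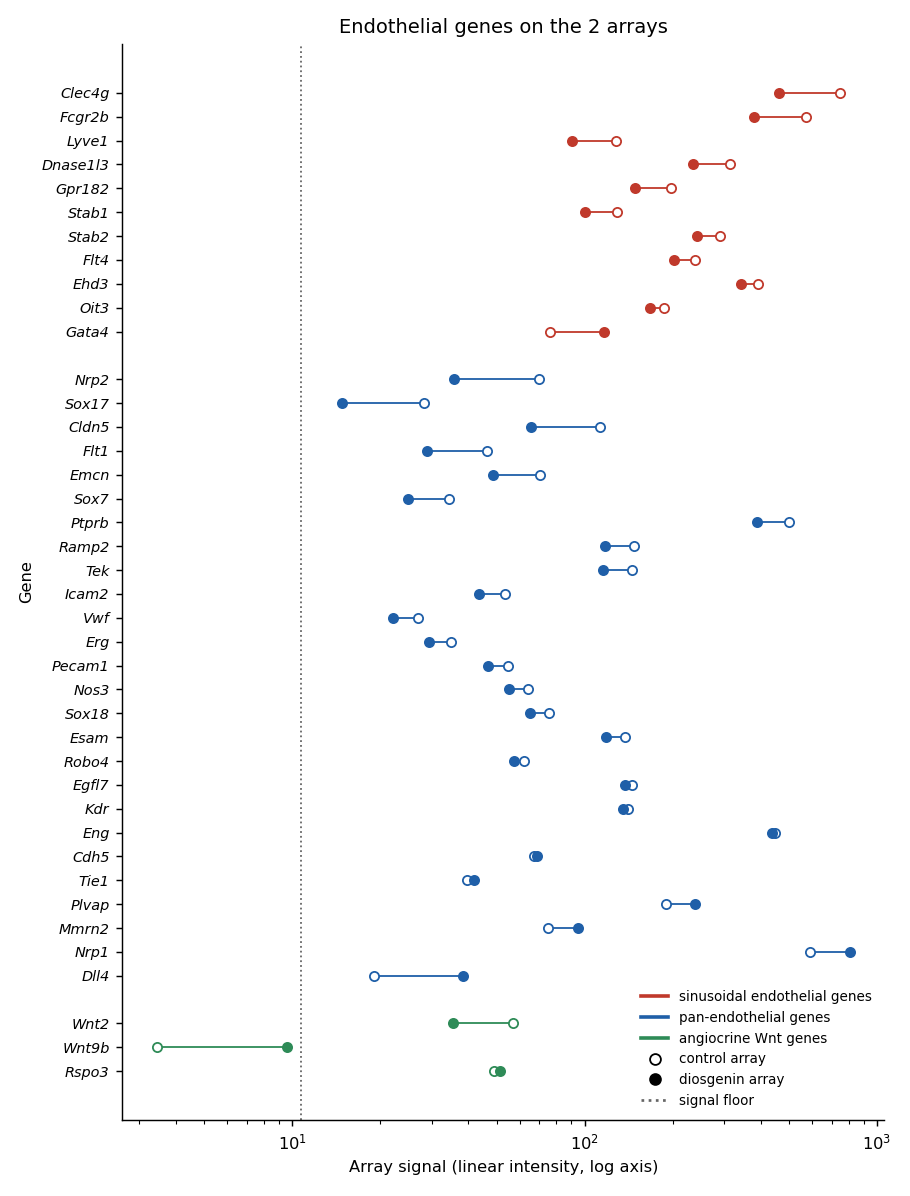
Signals of the 40 genes with a probe set (linear intensity on a log axis), open circles for the control array and filled circles for the diosgenin array, joined per gene and ordered within each class by log2 ratio; the dotted line is the floor of 10.7. In the sinusoidal class the filled circle lies left of the open one in 10 of 11 genes, Gata4 being the exception. Each circle is 1 array and has no error bar.

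Sinusoidal genes were lower in 10 of 11 cases. Clec4g, a C-type lectin of sinusoidal endothelium also called LSECtin, gave a signal of 745 for control and 464 for diosgenin, 1.61-fold lower. Its log2 ratio of −0.68 was below the central 95% of genes of similar signal, which reached from −0.47 to 0.44 in the brightest of 4 equal bins of signal. A second Clec4g probe set was under the filter, at 3.37 and 14.8, and the median of both gave a log2 ratio of −0.11. Fcgr2b, the inhibitory Fc gamma receptor through which sinusoidal cells take up immune complexes, was at 571 and 380, a log2 ratio of −0.59. Its 3 other readable probe sets were lower too, with log2 ratios of −0.49, −0.29 and −0.17. All 4 are of kinds that can bind several transcripts, and Fcgr2b belongs to a family of similar receptors, so its value is uncertain. Clec4g and Fcgr2b were the 2 sinusoidal genes below that band, which by its construction leaves 2.51% of all genes below it.

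In every pair of signals given here the control array comes first. By their brightest probe sets, the remaining scavenger and lectin receptors were lower by less. Lyve1, a hyaluronan receptor of sinusoidal and lymphatic endothelium, was at 128 and 90.5, 1.41-fold lower. Its second probe set, at 59.8 and 34.1, gave a larger difference, with a log2 ratio of −0.81. Over both probe sets the median was −0.66, lower than the −0.11 of Clec4g and the −0.29 of Fcgr2b over all their probe sets. The medians of Clec4g and Fcgr2b each take in a probe set under the filter, whereas both Lyve1 probe sets were readable, so they are not alike. Stab1 was at 129 and 100.3 and Stab2, the stabilin that takes up hyaluronan from blood, at 291 and 242, log2 ratios of −0.37 and −0.27. All 5 genes of this role were lower, with a median log2 ratio of −0.50, and they ranged from −0.68 for Clec4g to −0.27 for Stab2. The 3 of them other than Clec4g and Fcgr2b lay inside the central 95% of genes of their signal.

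The 4 genes grouped as other sinusoidal genes followed the same direction, with a median log2 ratio of −0.30. Dnase1l3, a secreted DNase, was at 314 and 234, 1.34-fold lower, and its second probe set gave a log2 ratio of −0.49 against −0.42. Gpr182, an atypical chemokine receptor of sinusoidal cells, was at 197 and 149, 1.32-fold lower. Ehd3, a membrane-trafficking ATPase, was at 391 and 342, with both probe sets at log2 ratios of −0.19 and −0.20. Oit3 was at 187 and 167, 1.12-fold lower. All 4 lay inside the central 95% of genes of their signal. For Ehd3 and Oit3, and also for Stab2 and the sinusoidal gene Flt4 at −0.23, the difference was smaller than 0.28. That value is the standard deviation of log2 ratios between probe sets of the same gene over 4079 genes.

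Gata4, the transcription factor that specifies sinusoidal endothelium, was the sinusoidal gene that went the other way. It was at 76.1 and 117, 1.54-fold higher, just above the central 95% of genes of its signal, whose upper end was 0.62. The second Gata4 probe set was at 30.6 and 22.1, a log2 ratio of −0.47, under the filter. The 2 probe sets of Gata4 therefore disagreed in direction.

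**Figure D2:**
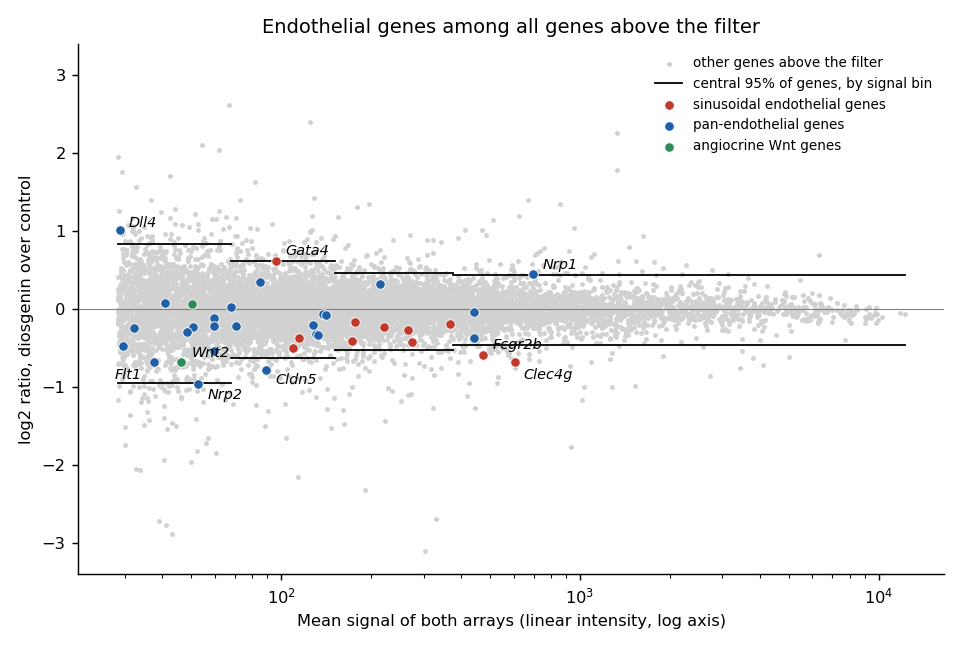
Log2 ratio of diosgenin over control (vertical axis) against the mean signal of both arrays (linear intensity, log axis) for the 9732 genes above the filter in grey and the 37 endothelial genes in colour; black lines bound the central 95% of all genes in each of 4 equal bins of signal. Clec4g, Fcgr2b, Cldn5 and Nrp2 lie below their band, and Gata4, Nrp1 and Dll4 above it.

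Receptors for VEGF ranged widely. Kdr, the main signalling receptor for VEGF-A, was nearly equal at 141 and 135, a log2 ratio of −0.057. Flt1, which binds VEGF-A and acts largely as a decoy, was at 46.4 and 28.9, 1.61-fold lower, but its signal was dim and its value was inside the central 95% of genes of that signal, from −0.95 to 0.83. The 3 other Flt1 probe sets were under the filter. Flt4, the receptor for VEGF-C, was at 238 and 203, 1.18-fold lower, while its second probe set at 34.1 and 39.7 had the opposite sign, with a log2 ratio of 0.22.

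The neuropilins, co-receptors that bind both VEGF and class 3 semaphorins, went in opposite directions. Nrp2 had the lowest ratio of the 37 genes, at 70.0 and 35.8, 1.95-fold lower. Its log2 ratio of −0.97 was just below the band of its dim signal, whose lower end was −0.95. Its other readable probe sets were at 56.1 and 35.4 and at 45.2 and 34.8, with log2 ratios of −0.67 and −0.38. All 3 were therefore lower. Nrp1 was bright at 590.0 and 805, 1.37-fold higher, just above the band of its signal. Probe sets of Nrp1 gave log2 ratios of 0.45, 0.34, 0.26 and, for the dimmest of the 4, −0.38. Nrp1 is also made by other liver cells.

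Promoters of Clec4g, Nrp2 and Nrp1 are shown as examples of genes outside the band of their signal, in both directions. The sequences are RefSeq's for mouse build GRCm38.p6, the 250 bases before the transcription start, read 5′ to 3′ on the strand of the gene. Capitals mark AGGAAG or CGGAAG on either strand, core motifs bound by ETS factors such as Erg, where overlapping matches run together.
Clec4g, chr8:3720652-3720901, minus strand: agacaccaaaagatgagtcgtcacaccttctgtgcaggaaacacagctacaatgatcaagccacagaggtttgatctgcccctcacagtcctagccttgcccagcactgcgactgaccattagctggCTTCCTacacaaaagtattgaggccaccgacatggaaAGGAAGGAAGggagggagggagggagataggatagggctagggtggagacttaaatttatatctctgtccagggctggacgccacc
Nrp2, chr1:62703067-62703316, plus strand: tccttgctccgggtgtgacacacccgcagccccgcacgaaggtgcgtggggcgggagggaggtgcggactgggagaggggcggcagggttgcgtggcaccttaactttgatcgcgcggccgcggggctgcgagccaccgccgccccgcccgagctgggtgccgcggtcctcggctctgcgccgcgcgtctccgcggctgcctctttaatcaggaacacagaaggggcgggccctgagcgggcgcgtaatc
Nrp1, chr8:128358823-128359072, plus strand: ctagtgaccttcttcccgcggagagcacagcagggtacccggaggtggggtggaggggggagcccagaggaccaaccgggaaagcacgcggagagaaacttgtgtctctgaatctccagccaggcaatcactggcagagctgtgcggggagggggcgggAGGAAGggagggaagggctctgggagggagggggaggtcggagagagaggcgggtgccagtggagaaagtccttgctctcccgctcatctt
Clec4g held 3 matches, of which 2 overlap, Nrp1 held 1 and Nrp2 held 0. Cldn5, Fcgr2b and Dll4, which also lay outside their band and are not shown, held 0. Over the list, 22 genes had an entry in the promoter table and 11 of them, 50.0%, held a match at any annotated start. Of all 27025 genes with an entry 42.5% did, and of all 32851 promoters of this length 39.2%. Matches were held by 9 of 17 lower genes and 2 of 3 higher ones, and a match describes letters only.

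Among the genes of angiopoietin, endoglin and Notch signalling the differences were mixed. Tek, the angiopoietin receptor Tie2, was at 145 and 116, 1.25-fold lower, and Ptprb, the phosphatase VE-PTP that restrains Tek, at 499 and 387, 1.29-fold lower. The second readable probe set of Ptprb gave a log2 ratio of −0.34, close to the −0.37 of the first. Tie1, the orphan partner of Tek, was nearly equal at 39.8 and 41.9. So was Eng, the TGF-beta and BMP co-receptor endoglin, at 447 and 436, with probe sets at −0.034 and 0.13. Dll4, the Notch ligand of arterial and tip cells, was at 19.1 and 38.5, 2.02-fold higher, the highest ratio of the 37 genes. It passed the filter only through the diosgenin array, and its other probe set, at 30.7 and 22.6, gave a log2 ratio of −0.45.

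Of the 6 junction and adhesion genes 5 were lower. Cldn5, the tight junction claudin of endothelium, was at 113 and 65.8, 1.71-fold lower, and below the central 95% of genes of its signal. It had 1 probe set. Icam2, an adhesion molecule for leukocytes, was at 53.4 and 43.7, Pecam1 (CD31) at 54.7 and 46.8, and Esam at 137 and 119, which were 1.22-fold, 1.17-fold and 1.16-fold lower. Robo4, which stabilises vessels, was 1.08-fold lower at 62.1 and 57.3. Cdh5, the VE-cadherin of adherens junctions, was equal within 1.02-fold at 67.3 and 68.8. Besides Cldn5, only Icam2 of these 6 genes differed by more than the 0.28 between probe sets of a gene.

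The endothelial transcription factors other than Gata4 were dim and lower. Sox7 was at 34.4 and 24.9, 1.38-fold lower, Sox18 at 75.7 and 65.3, 1.16-fold lower, and the ETS factor Erg at 34.9 and 29.4, 1.19-fold lower. Sox17, the remaining SOX factor of this group, was under the filter at 28.2 and 14.9, with a second probe set nearly equal at 19.4 and 20.6. All of them were inside the central 95% where it could be set.

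Surface, matrix and enzyme genes of endothelium were mixed. Emcn, a sialomucin of venous and capillary endothelium, was at 70.7 and 48.7, 1.45-fold lower. Ramp2, the adrenomedullin receptor partner, was at 148 and 118, 1.25-fold lower, and 2 probe sets shared by Ramp2 and the neighbouring symbol Vps25, not used for the gene, gave log2 ratios of −0.076 and −0.086. Nos3, the endothelial nitric oxide synthase, was 1.17-fold lower at 64.3 and 55.1. Egfl7, a secreted matrix factor, was at 146 and 137, and its 4 probe sets, all of kinds that can bind several transcripts, ranged from −0.40 to 0.30. Plvap, which forms the diaphragms of fenestrae and caveolae, was at 190 and 239, 1.25-fold higher, and Mmrn2, an endothelial matrix protein, at 74.9 and 95.2, 1.27-fold higher, with 3 of its 4 probe sets higher. Vwf, a marker of larger vessels, was under the filter at 26.9 and 22.2.

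Of the angiocrine Wnt genes, Wnt2 was lower. It was at 57.1 and 35.5, 1.61-fold lower, by a single dim probe set inside the band of its signal. Rspo3, the R-spondin that amplifies Wnt signals around the central vein, was equal within 1.04-fold at 49.2 and 51.3. Both Wnt9b probe sets were under the floor on both arrays, so it has no ratio. A list of 18 hepatocyte genes linked to this signal was set beside them. It held mainly its targets, but also Ctnnb1 and Tcf7l2, which are parts of the pathway itself. Of the 18, 16 were readable, with 9 lower, 7 higher and a median log2 ratio of −0.091. With probe sets that can bind several transcripts left out, that median was 0.039. None of the 16 reached 1.5-fold. Its largest differences were those of Slc1a4 at −0.53, Lect2 at −0.32, Tcf7l2 at 0.31 and the Wnt receptor partner Lgr5 at 0.28. Slc1a4, at 39.3 and 27.2, passed the filter only through the control array. The usual reporters Axin2 and Glul, named after their values were seen, were at log2 ratios of −0.13 and −0.10. Over the readable probe sets of Glul, which is glutamine synthetase, the median was −0.26.

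**Figure D3:**
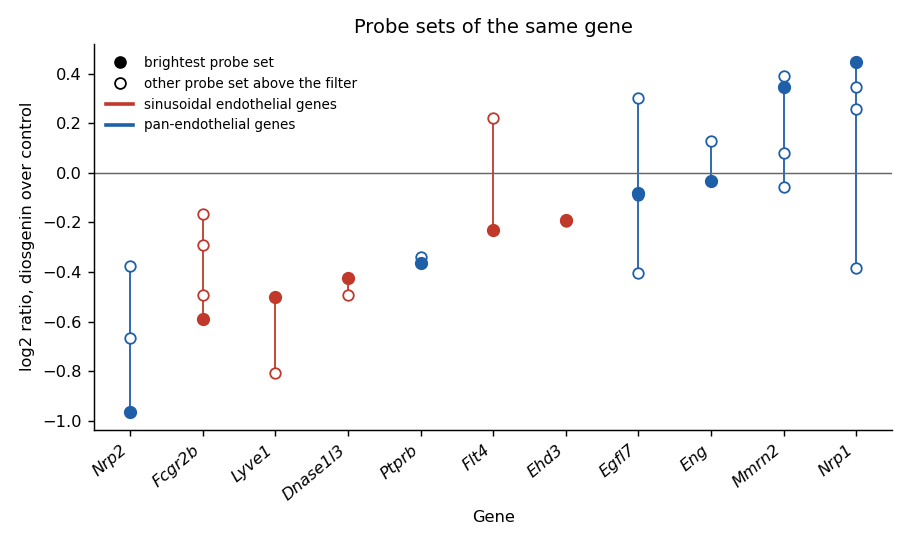
Log2 ratios of diosgenin over control (vertical axis) of each probe set above the filter, for the 11 endothelial genes with more than 1; filled circles are the brightest probe set, open circles the others, and vertical lines span each gene. All probe sets were lower for Dnase1l3, Ehd3, Fcgr2b, Lyve1, Nrp2 and Ptprb, and the signs were mixed for Egfl7, Eng, Flt4, Mmrn2 and Nrp1.

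Genes with several probe sets gave the one repeat measurement that the arrays hold. Of 11 such endothelial genes, 6 had all readable probe sets lower, 5 were mixed and 0 had all higher. Over all 4079 genes with several readable probe sets, 51.4% had a single sign, close to the share of 6 of 11. The share of all these genes with every probe set lower was not computed. The standard deviation between probe sets was 0.25 for the endothelial genes, close to the 0.28 of all genes. Counted by probe set, 42 of 57 were lower, against 50.6% of all probe sets above the filter. This spread holds no difference between mice.

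Sinusoidal genes were compared with pan-endothelial ones as classes. Of the 11 sinusoidal genes, all readable, 10 were lower, with a median log2 ratio of −0.37 and a mean of −0.29. Of 24 readable pan-endothelial genes 18 were lower, with a median of −0.22 and a mean of −0.16. The sinusoidal median was lower by a log2 difference of −0.15, and the classes overlapped widely. The pan-endothelial genes reached from −0.97 for Nrp2 to 1.01 for Dll4, and 5 of them lay under the sinusoidal median, while 3 of the 11 sinusoidal genes lay above the pan-endothelial median. Without Stab1, Fcgr2b and Nrp1, which other liver cells also express, the difference was −0.046. It was −0.056 with the median over probe sets and −0.050 without probe sets that can bind several transcripts, and a stricter filter at the 75th percentile gave −0.28, with a pan-endothelial median of −0.082. With Flt4 and Gata4 counted as pan-endothelial the difference was −0.19, with a sinusoidal median of −0.40. The order of the classes was the same under these settings, but the size of the difference was not stable, and with 1 array a diet it has no test.

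The classes differ in signal, which bears on this comparison because dim genes scatter more. In the upper 2 of the 4 bins of signal, 8 sinusoidal genes had a median of −0.34 and 4 pan-endothelial genes, Eng, Ptprb, Plvap and Nrp1, one of 0.15. The dimmest bin held 0 sinusoidal and 11 pan-endothelial genes, 9 of them lower, with a median of −0.25. Lower endothelial genes outnumbered higher ones in each bin, with 10 of 13, 9 of 12, 6 of 7 and 4 of 5 from the dimmest to the brightest, where 52.6%, 50.7%, 50.2% and 50.5% of all genes were lower.

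Other endothelial genes, a second list of 48 that shares none with the first, were set beside these. Of its 31 readable genes 19 were lower and 12 higher, at a median log2 ratio of −0.24 that became 0.034 under the stricter filter and −0.034 without one. Ccm2l and Clec14a, both expressed in endothelium, had log2 ratios of −0.75 and −0.56, and the transcription factor Meis2 one of −0.68. Ccm2l, at 38.4 and 22.8, passed the filter only through the control array. Ephb4, the ephrin receptor of veins, was 1.69-fold higher. Among 9 readable scavenger and uptake genes that sinusoidal cells share with macrophages 6 were lower, and the median was −0.21. That median was −0.0071 without the signal filter and −0.11 under the stricter one. Scarb1, the HDL receptor also made by hepatocytes, was at a log2 ratio of −0.42, the mannose receptor Mrc1 at −0.28, Cd36 at −0.24 and Scarf1 at −0.23. Of these, Scarf1, at 31.5 and 26.8, passed the filter only through the control array.

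Ligands and partners of the endothelial receptors did not move as one group. Of 16 VEGF and angiopoietin partners 9 were readable, 7 of them higher, with a median of 0.23. They included the secreted lipase inhibitor Angptl4 at 0.45, the transcription factors Hhex at 0.38 and Epas1 at 0.26, and the Flt4 ligand Vegfc at −0.31. Without the signal filter that median was 0.011. Of 9 readable Notch partners 6 were lower, with a median of −0.074. Notch2 was at −0.46 and Notch1 at −0.25, while the target Heyl and the ligand Jag1 were at 0.38 and 0.30. Of 15 readable BMP and TGF-beta partners 8 were lower, and their median was −0.0078. Bmp2, an angiocrine ligand, was at 192 and 134, a log2 ratio of −0.52, and the inhibitor Smad6 was at −0.56, whereas Tgfb1 was at 0.55 and Smad5 at 0.49. The ligand Bmp6 and Acvrl1, the receptor for the ligands encoded by Gdf2 and Bmp10, were under the filter.

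**Figure D4:**
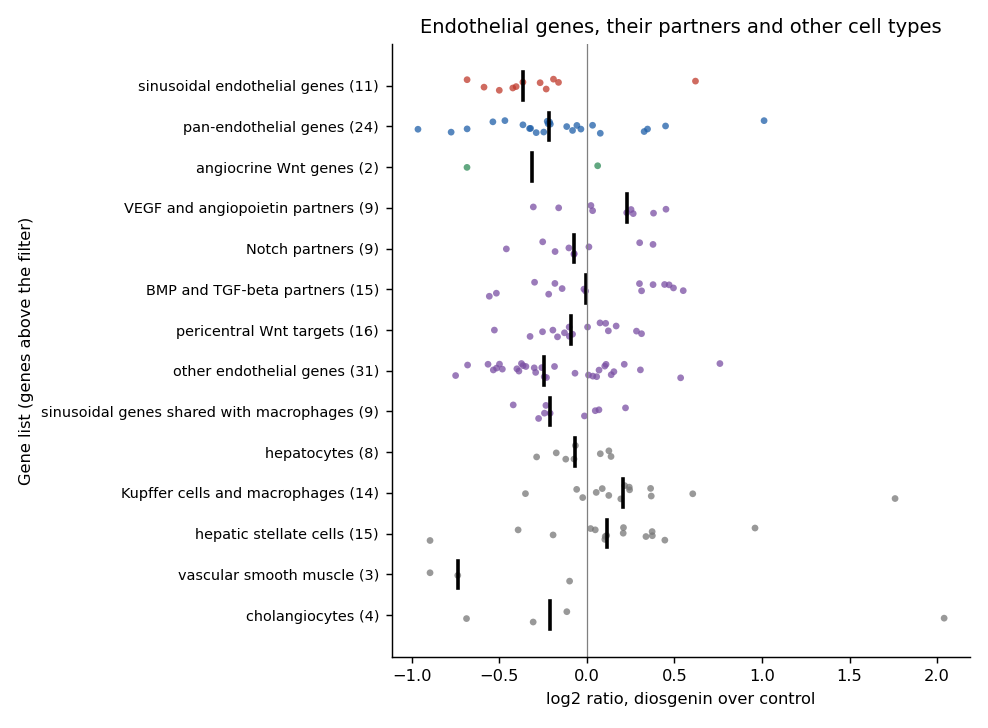
Log2 ratios of diosgenin over control (horizontal axis) of the genes above the filter in each list, with the number of genes in brackets; points are genes, black bars are medians, the first 3 lists are the endothelial genes, the purple ones their partners and the grey ones markers of other cell types. The sinusoidal median is −0.37 and the pan-endothelial one −0.22, against 0.20 for Kupffer cells and macrophages and −0.070 for hepatocytes.

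Markers of other liver cells did not share this direction throughout. All 14 markers of Kupffer cells and macrophages were readable, 11 of them higher, with a median log2 ratio of 0.20 and summed signals of 4431 and 5498. Marco had a log2 ratio of 1.76, at 13.3 and 45.1, and passed the filter only through the diosgenin array. The iron exporter Slc40a1 was at 0.60 and Lyz2 at 0.37. Of 15 readable stellate cell markers 12 were higher, with a median of 0.11 and summed signals of 3213 and 3684 over all 16. Hand2 was at 0.96, Acta2 at −0.90 and Hgf at 0.44, where Hand2, at 27.8 and 54.0, passed the filter only through the diosgenin array. Vascular smooth muscle markers were mostly too dim, with 3 of 7 readable and all 3 lower, Acta2 at −0.90, Tagln at −0.74 and Mylk at −0.099, and these 3 summed to 607 and 488, or 659 and 517 with the 4 dim ones. With the median over all probe sets of a gene, that list's median was −0.099 instead of −0.74. Hepatocyte markers had a median of −0.070, with 5 of 8 lower and summed signals of 60715 and 58072.

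Markers of the remaining cell types were sparse. Of the cholangiocyte markers 4 were readable, with Tff3 at 2.04, Sox9 at −0.69 and Krt18 at −0.31. Tff3, at 24.3 and 99.9, and Sox9, at 42.0 and 26.1, each passed through 1 array only. All 8 markers with a probe set summed to 3604 and 3160. Krt18, at 1769 and 1429, and Krt8, at 1699 and 1569, made up most of that sum, so it describes mainly these keratins. Krt7, Krt19, Epcam and Cftr were under the filter. Lymphocytes had 2 readable markers, Ptprc at 0.17 and Cd8a at −0.0051, platelets 2, Itga2b at 0.16 and Pf4 at 0.071, and erythroid cells 1, Alas2 at −0.22. These readable markers summed to 105 and 115 for lymphocytes, 99.7 and 108 for platelets, and 1309 and 1123 for erythroid cells. With the dim markers added, the sums were 172 and 221, 172 and 187, and 1340 and 1159. No marker was listed at 0 on either array. The part of cell composition in the endothelial differences was not tested.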

How the data were processed

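Liver RNA pooled from 3 mice per diet was hybridised to 1 array per diet, and aliquots of 5 µg were labelled with biotin, per the labels' protocols. The authors deposited a linear array intensity for each of 45101 probe sets. GCOS is named in the submitters' processing notes; the summary method, the scaling target and any detection calls were not given in the sources used here. Equal trimmed means show that both arrays share a global scaling. Names came from the array platform annotation, in which 34958 probe sets had 1 symbol, 932 had several, and 9211 are unnamed here. All 41 symbols were in the RefSeq table of GRCm38.p6, used for names only.

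The floor, the filter, the brightest probe set per gene and the log2 ratio were computed as described in the report, with Python 3.11.15, numpy 2.4.6 and pandas 2.3.3, and tested on simulated arrays. The number of arrays limits the precision, and no test was possible. Every member was accounted for. Of each partner list the 4, and of each marker list the 3, readable genes of largest absolute log2 ratio were named at most. Named besides these were Axin2, Glul, Ctnnb1 and Krt8, and, as unread, Bmp6, Acvrl1, Krt7, Krt19, Epcam and Cftr. The members and lists were chosen with earlier results of these data known. Tried alternatives were 9 planned settings and 1 added after seeing the data.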

Additional observations from a re-analysis of the deposited data

How the results depend on the processing

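Of the 37 readable genes, 36 kept their sign in every setting that could be computed for them (floor, filter, probe set choice and scaling), 28 of them lower and 8 higher; Eng, near equal, was the exception. The floor and the filter cannot reverse a sign, and for a gene with 1 probe set nor can the choice of probe set. Gata4 and Dll4 counted among the 36 although their probe sets disagreed in direction. The count of lower genes was 29, and 18 of 22 with the filter at the 75th percentile. That filter also gave a pan-endothelial median log2 ratio of −0.082, a difference between classes of −0.28, 3 genes at least 1.5-fold lower and 1 higher. With the median over all probe sets, readable or not, the sinusoidal median was −0.27, and 3 genes were at least 1.5-fold lower and 0 higher. Clec4g was then at −0.11, Fcgr2b at −0.29, Flt1 at −0.28, Nrp2 at −0.52, Gata4 at 0.075 and Dll4 at 0.28. Without probe sets ending in _x_at, _s_at or _a_at the sinusoidal median was −0.27. A floor at the 60th percentile left 1 gene at least 1.5-fold higher, with Dll4 at 0.44. Without Stab1, Fcgr2b and Nrp1, chosen after seeing the data, the sinusoidal median was −0.27 and the class difference −0.046. With these genes kept, that difference was −0.056 with the median over probe sets. It was −0.050 without probe sets that can bind several transcripts. List medians changed sign for the pericentral Wnt targets, the other endothelial genes, and the BMP and TGF-beta partners. The Wnt target median was 0.039 without the shared probe sets, and that of other endothelial genes 0.034 under the stricter filter. The BMP and TGF-beta median, −0.0078 as reported, became 0.15 under that filter. Its value was 0.037 by the median over probe sets, 0.015 without the shared ones and 0.0091 after quantile normalization. No paired analysis was possible because each diet had 1 array, and leaving out an array leaves no comparison. Dim signals limit Flt1, Nrp2, Dll4, Wnt2, Sox7 and Erg.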
